A study of Mus musculus with 3 samples.

Results

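The Hedgehog pathway genes Ihh, Ptch1, Hhip, Smo, Gli1, Gli2 and Gli3 were followed across the cell classes and ages of the mouse patellar tendon, the band that joins the kneecap to the shin bone. All 7 were found by their gene symbol in the feature list of 32288 entries that the libraries share. The data are droplet single-cell RNA-seq libraries of mice labelled wild type (WT), made with a kit that reads the 3′ ends of transcripts and counts each captured molecule once by its unique molecular identifier (UMI). There were 2 libraries of mice aged 20 weeks (replicates 1 and 2) and 1 library of mice aged 2 weeks, each made after cells of blood lineages and vessel lining had been sorted out. The labels name no transgene or treatment. The feature list nevertheless holds 3 added reporter sequences, and reporter RNA went against the WT label in every library: EGFP had 86 and 58 UMIs in 20-week replicates 1 and 2 and 1817 UMIs in the 2-week library, and tdTomato had 878 and 1406 UMIs at 20 weeks and 983 UMIs at 2 weeks, while tdTomato-WPRE had 0 in all of them. No library lacks reporter RNA, so no result could be given without it, and its part in the results was not tested. The number of animals behind each library, their sex and their strain are not given in the sources used here. With a single young library, age differences cannot be told apart from differences between libraries. The spread behind the p-values of age comes only from the 2 libraries of 20 weeks, with information shared across genes. The 2-week library is assumed to vary like them.

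Hedgehog ligands (Sonic, Indian and Desert hedgehog) are secreted proteins that bind the membrane receptor Patched, encoded by Ptch1. Unbound Patched holds the transducer Smoothened (Smo) in check at the primary cilium; ligand binding frees Smo, and the zinc finger factors Gli2 and Gli3 then pass from repressor to activator forms. Ptch1, Hhip (a decoy that traps ligand at the cell surface) and Gli1 are themselves turned on by the pathway and are therefore widely read as signs that a cell is responding. In cartilage of the growth plate Indian hedgehog comes from prehypertrophic chondrocytes, and in the tendon attachment to bone Gli1-expressing cells build the mineralized fibrocartilage.

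In GENCODE's annotation of the mm10 build (GRCm38), Ptch1 lies on chromosome 13 at 63508328 to 63573598 on the minus strand and Hhip on chromosome 8 at 79965851 to 80058006, also on the minus strand. Gli1 lies on chromosome 10 at 127329882 to 127341974 on the minus strand, where it overlaps 2 genes of the opposite strand, Arhgap9 and Gm47200. Whether the authors' counting used strand is not given in the sources used here, so reads of Gli1 and of those genes may not have been told apart. Ihh (chromosome 1, 74945315 to 74951672), Smo (chromosome 6, 29735503 to 29761365), Gli2 (chromosome 1, 118834132 to 119053619) and Gli3 (chromosome 13, 15463235 to 15730026) are all protein-coding genes. RefSeq promoter windows of GRCm38.p6 (250 bases before to 50 after the listed start) were matched for 6 of the 7 genes, all but Gli1. The windows of Ptch1 (chr13:63565686-63565985, minus strand) and Hhip (chr8:80057959-80058258, minus strand) are shown because both genes are known pathway targets and the cells with Hhip UMIs at 2 weeks more often had Ptch1 UMIs too; both run 5′ to 3′, and no letters are in capitals because no searched motif matched.
Ptch1: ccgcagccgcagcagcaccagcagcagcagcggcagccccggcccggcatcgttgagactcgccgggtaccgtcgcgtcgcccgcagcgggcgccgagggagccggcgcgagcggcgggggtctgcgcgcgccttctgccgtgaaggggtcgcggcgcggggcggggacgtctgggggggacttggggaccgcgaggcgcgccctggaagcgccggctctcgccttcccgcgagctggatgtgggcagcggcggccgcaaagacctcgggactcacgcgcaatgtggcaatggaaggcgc
Hhip: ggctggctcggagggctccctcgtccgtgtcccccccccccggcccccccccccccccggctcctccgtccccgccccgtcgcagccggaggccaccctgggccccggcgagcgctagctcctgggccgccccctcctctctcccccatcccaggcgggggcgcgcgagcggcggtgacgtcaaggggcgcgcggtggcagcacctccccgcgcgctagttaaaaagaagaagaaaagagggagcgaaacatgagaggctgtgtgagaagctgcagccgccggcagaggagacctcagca
The GLI consensus GACCACCCA, searched on both strands, was in none of the 6 windows, nor was its form with any base at the fifth position (GACCNCCCA) or with at most 1 mismatch. Of 32851 promoter windows of the same length, 0.253% held the exact form, 0.977% the form with a free position and 6.74% a form within 1 mismatch. The windows were rich in G and C, at 76.3% for Ptch1 and 73.7% for Hhip, where the median window had 52.7%. No match says only that these letters are not in these windows. The Ptch1 window lies inside the annotated gene, whose 5′ end on the minus strand is at 63573598 and which has 10 annotated transcripts. It therefore does not cover the outermost start of Ptch1. The Hhip window spans the annotated 5′ end of its gene at 80058006.

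After filtering and removal of called doublets, 606 and 1007 cells were kept of 20-week replicates 1 and 2, and 4767 of the 2-week library. They held 1786502, 5375591 and 32180581 UMIs, with medians of 2822, 5096 and 6390 UMIs per cell, so the 2-week values rest on far more counts and 20-week replicate 1 is the least precise. The libraries shared few barcodes: 2, 3 and 5 barcodes of 20-week replicate 1, 20-week replicate 2 and the 2-week library occurred in another library. Clusters were built without the Hedgehog genes and named from marker lists. By these names the 2-week library alone held an osteogenic-like class (157 cells) and, but for 1 cell, a chondrocyte-like class (502 cells). The Hhip-positive fibroblast cluster, chosen because Hhip was among its 10 leading genes, had 8, 5 and 257 cells in 20-week replicates 1 and 2 and the 2-week library. Tenocyte-like cells numbered 244, 120 and 665, and progenitor-like cells, fibroblasts marked by Pi16 and Cd55, numbered 148, 536 and 854. Different clusters held most of both classes at the 2 ages: 230 of 244 tenocyte-like cells of 20-week replicate 1 were in cluster 7 and 438 of 665 at 2 weeks in cluster 4, while 517 of 536 progenitor-like cells of 20-week replicate 2 were in cluster 2 and 653 of 854 at 2 weeks in cluster 1. The progenitor-like class was smaller at a finer clustering resolution (1.0), with 79, 211 and 665 cells. An unnamed cluster at that resolution held 22, 283 and 9 cells. Fmo2, Hmcn2, Abca8a and Smoc2 were among the leading genes of both that cluster and the Hhip-positive fibroblast cluster. The 20-week progenitor-like class thus depends on the resolution. In 20-week replicate 2 there were also 66 immune-like and 83 muscle-fibre-like cells, which serve here as classes where pathway RNA is low. Levels are given as UMIs of the gene per 1000000 UMIs of the class (CPM), with exact Poisson 95% intervals that cover counting error only; a class set against another within 1 library is a description with no test.

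The label of each class was checked against its markers in the 2-week library. Of the 157 osteogenic-like cells, taken from a finer clustering, 88 lay at the main resolution in cluster 4, which holds most 2-week tenocyte-like cells, and 69 in cluster 3 with the chondrocyte-like cells. The osteogenic-like class had UMIs for 7 of 8 osteogenic markers, including Bglap (osteocalcin) and Sp7 (osterix), and none for Dmp1, a marker of osteocytes. It also held all 8 tenocyte markers at a summed 14859 CPM, against 18248 CPM in tenocyte-like cells, and all 10 cartilage markers at 2808 CPM, against 8491 CPM in chondrocyte-like cells. Of 5 markers of hypertrophic cartilage, Col10a1 and Panx3 were at 0 UMIs in both the osteogenic-like and the chondrocyte-like class. They were also at 0 in 2-week tenocyte-like and progenitor-like cells. The other 3, Pth1r, Mef2c and Alpl, had UMIs in both skeletal classes, at a summed 379 CPM in osteogenic-like and 203 CPM in chondrocyte-like cells. The part of this mixed marker content in the levels below was not tested.

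Ligand RNA was scarce. Ihh had 0 UMIs in 20-week replicate 1, 1 UMI in 20-week replicate 2 and 10 UMIs in the 2-week library. None of the 10 lay in the chondrocyte-like cells, where 0 of 502 cells allows a share of cells with a UMI of up to 0.598% by a floor of 3 counts (exact 95% upper limit 0.732%), or in the osteogenic-like cells, where 0 of 157 allows up to 1.91% (2.32%). At 2 weeks 8 of the 10 were in mural-like cells (vessel wall cells marked by Acta2 and Myh11), 1 in a progenitor-like cell and 1 in an unnamed cluster, each in a different cell. Of these 10 cells, 9 had at least 40 UMIs of Acta2 (48 to 785), and 0 had a UMI of Col2a1, the main collagen of cartilage. Only 663 of all 2-week cells had as much Acta2. The mural-like level was 1.7 CPM (95% interval 0.8 to 3.4), from single UMIs in 8 cells. Sonic hedgehog (Shh) had 0 UMIs in every library. Desert hedgehog (Dhh), the ligand that Schwann cells make for the developing nerve sheath, had 0 and 1 UMI in 20-week replicates 1 and 2, where 2 Schwann-like cells each were found, and 23 UMIs at 2 weeks, of which 17 were in 34 Schwann-like cells. They had 147.7 CPM of Dhh there (95% interval 86.1 to 236), against 0.7 CPM over all 2-week cells.

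Ptch1, the main receptor, was unevenly spread at 2 weeks. Its highest level was in cluster 15, a small unnamed cluster of 76 cells led by Cp, Apod, Smoc2, Ccl11 and Cldn1, with 90 UMIs or 226 CPM (95% interval 182 to 277). Next came the osteogenic-like class with 105 UMIs in 157 cells, or 105.8 CPM (86.6 to 128). The Hhip-positive fibroblast cluster had 27.6 CPM (20.8 to 35.9), chondrocyte-like cells 19.0 CPM (14.2 to 24.9) and mural-like cells 13.5 CPM (10.3 to 17.3). Progenitor-like cells had 7.5 CPM (5.5 to 10.0) and tenocyte-like cells 5.9 CPM (4.1 to 8.3). The intervals of the 2 highest groups overlapped neither each other nor any of the others. Those of the Hhip-positive fibroblasts and the chondrocyte-like cells overlapped, as did those of the chondrocyte-like and mural-like cells and those of the progenitor-like and tenocyte-like cells. In immune-like cells of 20-week replicate 2 Ptch1 had 2 UMIs in 66 cells, or 5.2 CPM. In muscle-fibre-like cells of that library it had 0 UMIs in 83 cells. The tenocyte-like and progenitor-like levels thus stood near the immune-like one, which rests on 2 UMIs, and above the 0 of the muscle-fibre-like cells.

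**Figure D1:**
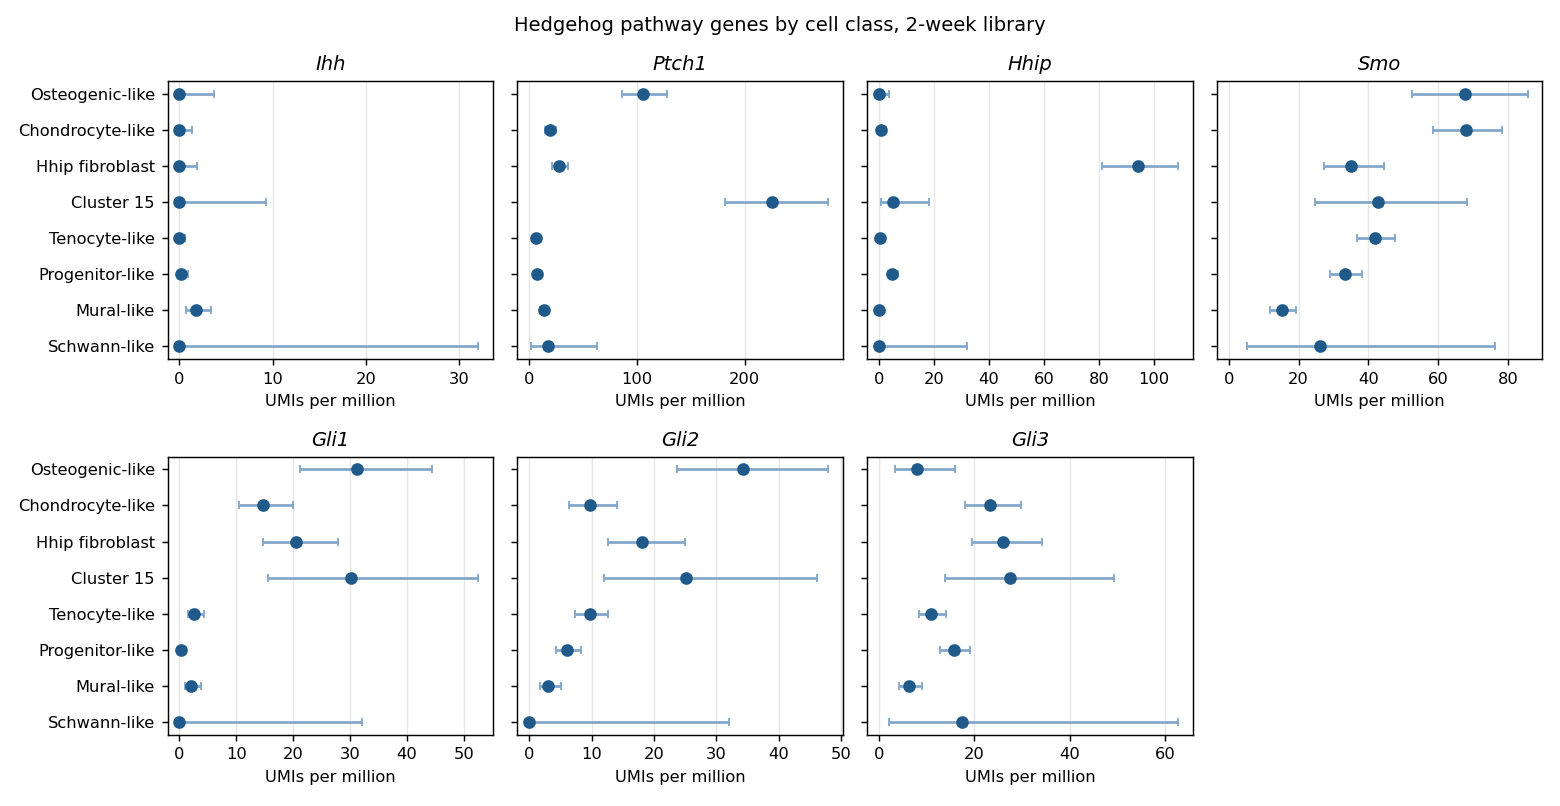
Level of each Hedgehog pathway gene in CPM (x axes, each with its own range) by cell class or cluster (y axis) in the 2-week library, with exact Poisson 95% intervals as bars. Ptch1 is highest in cluster 15 (226 CPM) and in the osteogenic-like class (105.8 CPM), Hhip stands out in the cluster chosen for it (94.3 CPM), and Ihh is near 0 throughout.

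The osteogenic-like class made up 3.29% of the 2-week cells and held 20.1% of their Ptch1 UMIs, whereas tenocyte-like cells made up 13.95% and held 6.50%. The cells of cluster 15 and of the osteogenic-like class also carried more Ptch1 each. A cluster 15 cell with any Ptch1 had 3.6 UMIs on average and up to 16, and an osteogenic-like one had 2.06 and up to 9. In chondrocyte-like cells the average was 1.18, in tenocyte-like cells 1.06. A high Ptch1 level was also seen in 20-week replicate 2, where 16 cells of cluster 15 had 10 Ptch1 UMIs in 4 cells, or 169 CPM (81.0 to 310), against the 226 CPM at 2 weeks. These cells are few, and their make-up differed. All 10 UMIs lay in the 14 cells with no Cldn1 UMI, whereas at 2 weeks 63 of the 90 lay in the 33 cells with one. In 20-week replicate 1 only 5 cells fell in cluster 15, with 0 Ptch1 UMIs, and the interval there reached 354 CPM. A second 20-week group stood above the rest: cluster 17, 45 cells of replicate 2 led by Cytl1, Clu and Ibsp, had 17 Ptch1 UMIs in 7 cells, or 56.9 CPM (33.2 to 91.2). Its leading genes Ibsp, Spp1, Clec3a and Chad also led the cluster named osteogenic-like. Its leading genes Cytl1, Clu, Ecrg4, Spp1, Chad and Npy also led cluster 7, named tenocyte-like. Cluster 17 met no naming rule, and its identity was not tested.

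Hhip, the decoy receptor, lay largely in the cluster chosen for it, and its level there is a description. The cluster held 188 of the 239 Hhip UMIs of the 2-week library, at 94.3 CPM (81.3 to 109). Progenitor-like cells had 30 UMIs, or 4.8 CPM (3.2 to 6.9), tenocyte-like cells had 3, chondrocyte-like cells 2, and osteogenic-like cells 0. Thus the osteogenic-like class, second highest for Ptch1, had no detected Hhip, with an upper interval of 3.7 CPM. Within the Hhip-positive fibroblasts the RNA was further concentrated. At a finer clustering resolution (1.0), 86 of these cells formed cluster 21 with 155 Hhip UMIs in 55 cells, or 251 CPM (213 to 293). The same 86 cells had 59.8 CPM of Ptch1 (42.1 to 82.5) and 45.3 CPM of Gli1 (30.1 to 65.4). Cells of its neighbour at that resolution, cluster 15 of the finer set with 172 cells, had 23.9 CPM of Hhip, 13.1 CPM of Ptch1 and 9.4 CPM of Gli1. Neither Ptch1 nor the Gli genes were used to build or choose these clusters, although all genes come from the same cells.

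Smo, the transducer, was found in all the larger classes of the 2-week library. Chondrocyte-like cells had 67.8 CPM (58.5 to 78.2) and osteogenic-like cells 67.5 CPM (52.3 to 85.8), levels that counting error does not separate. Tenocyte-like cells had 42.0 CPM (36.8 to 47.6), the Hhip-positive fibroblasts 35.1 CPM (27.4 to 44.4) and progenitor-like cells 33.4 CPM (29.0 to 38.3), whose intervals overlapped in turn. Mural-like cells were lowest of the larger classes at 15.2 CPM (11.9 to 19.2). In 20-week replicate 2 Smo had 0 UMIs in the immune-like and in the muscle-fibre-like cells.

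The 3 Gli factors were distributed differently from one another. Gli1, the activator that the pathway itself induces, had 31.2 CPM (21.2 to 44.4) in osteogenic-like cells, 20.6 CPM (14.8 to 27.9) in the Hhip-positive fibroblasts and 14.7 CPM (10.6 to 20.0) in chondrocyte-like cells, and 30.1 CPM (15.6 to 52.6) in cluster 15. It had 2.6 CPM (1.5 to 4.3) in tenocyte-like cells and 2 UMIs, or 0.3 CPM, in 854 progenitor-like cells. The intervals of the first 4 overlapped in part, while those of the tenocyte-like and progenitor-like cells lay below all of them. Gli2, the main activator upon ligand binding, was highest in osteogenic-like cells at 34.3 CPM (23.7 to 47.9), followed by cluster 15 at 25.1 CPM (12.03 to 46.1) and the Hhip-positive fibroblasts at 18.1 CPM (12.6 to 24.99). Chondrocyte-like and tenocyte-like cells had 9.7 and 9.8 CPM of Gli2. Gli3, the main repressor without ligand, ran the other way between the skeletal classes: osteogenic-like cells had 8 UMIs, or 8.1 CPM (3.5 to 15.9), and chondrocyte-like cells 65 UMIs, or 23.3 CPM (18.0 to 29.7). The Hhip-positive fibroblasts had 26.1 CPM of Gli3 (19.5 to 34.2), progenitor-like cells 15.7 CPM (12.8 to 19.2) and tenocyte-like cells 10.97 CPM (8.4 to 14.04).

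**Figure D2:**
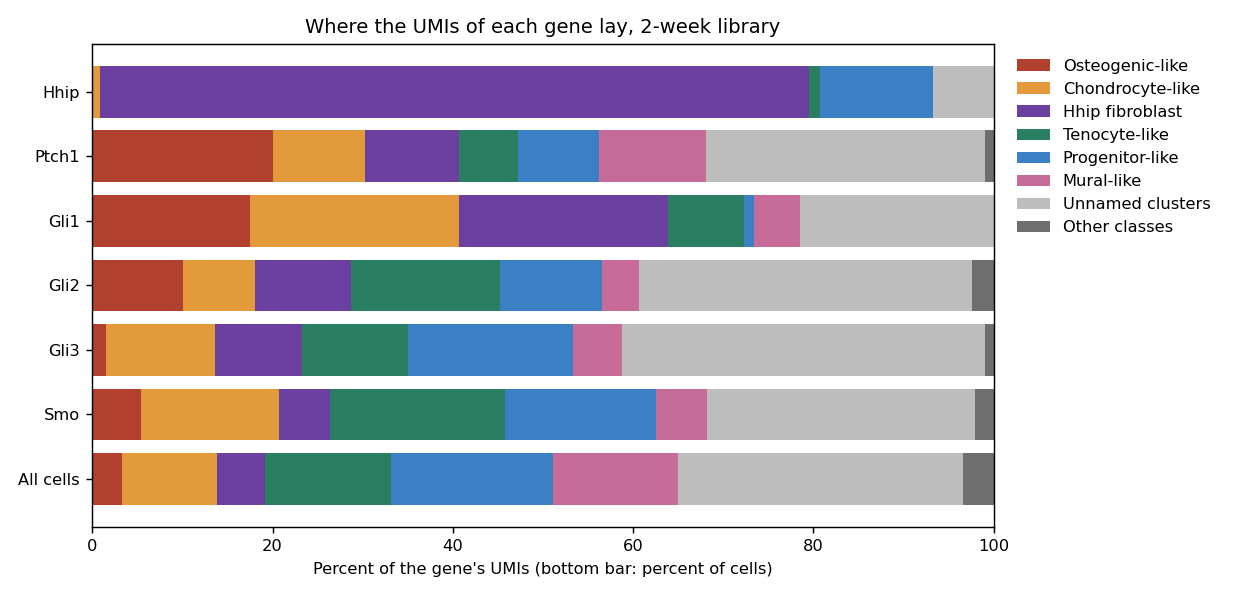
Percent of the UMIs of each gene (x axis) that lay in each cell class (colours) of the 2-week library, 1 bar per gene, with the percent of cells in each class as the bottom bar. The Hhip-positive fibroblasts, 5.39% of the cells, held 78.7% of Hhip and 23.2% of Gli1, while Smo followed the cell numbers more closely.

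Shares of cells with a UMI were also taken after each cell had been thinned to 2000 UMIs. Ptch1 was then seen in 13.6% of 154 osteogenic-like cells (exact binomial 95% interval 8.64 to 20.1), 5.10% of 255 Hhip-positive fibroblasts, 4.66% of 472 chondrocyte-like, 1.84% of 815 progenitor-like, 1.74% of 633 mural-like and 1.57% of 637 tenocyte-like cells. Before thinning, the shares in the same order were 32.5%, 15.6%, 8.96%, 5.39%, 7.85% and 4.81%. Mural-like cells, above progenitor-like cells by CPM, were thus not above them by thinned share. Smo was seen after thinning in 5.10% of the Hhip-positive fibroblasts and 8.10% of the progenitor-like cells, the other way round from their CPM, and the intervals overlapped (2.74 to 8.56 and 6.32 to 10.2). In the immune-like cells of 20-week replicate 2 the thinned share was 0 of 66, which allows up to 4.55% by a floor of 3 counts (exact 95% upper limit 5.44%), so a thinned share of a few percent cannot be set apart from background there. Gli1 was seen after thinning in 5.84% of osteogenic-like, 3.53% of Hhip-positive, 2.97% of chondrocyte-like and 1.10% of tenocyte-like cells.

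Few cells had UMIs of both Ptch1 and Gli1, 0 of 606, 5 of 1007 and 38 of 4767 cells of 20-week replicates 1 and 2 and the 2-week library. In 20-week replicate 1, 0 of 3 cells with Gli1 had Ptch1, and in 20-week replicate 2 15.6% of 32 cells with Gli1 had it, against 7.08% of the cells without. In the 2-week library 24.2% of the 157 cells with Gli1 also had Ptch1, against 7.03% of the 4610 cells without Gli1. In osteogenic-like cells the shares were 51.9% of 27 and 28.5% of 130, and in Hhip-positive fibroblasts 36.4% of 33 and 12.5% of 224. In chondrocyte-like cells they were 10.5% of 38 and 8.84% of 464, and in tenocyte-like cells 6.67% of 15 and 4.77% of 650. Among the Hhip-positive fibroblasts, 38.2% of the 68 cells with a Hhip UMI had Ptch1, against 7.41% of the 189 without, and 29.4% against 6.88% had Gli1. Cells with Gli1 were deeper, with a median of 7416 UMIs against 6374, and the part of depth in these shares was not tested.

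Over 32 units of at least 20 cells (a cluster in a library), the levels of Ptch1 and Gli1 on the log2(CPM + 10) scale had a Pearson correlation of 0.65, and of 0.82 over the 15 units of the 2-week library. Without cluster 15, a choice made after seeing the data, they were 0.47 over 31 units and 0.70 over 14. The other pairs with Ptch1 were lower, from 0.18 for Gli3 to 0.39 for Gli2. Units share libraries and depth, so these values are a description. Among 12247 genes, those most like Ptch1 across the units were Foxd2os (0.74), Scgb1a1 (0.72), Amn (0.72), Cdkn2b (0.72) and Shisa3 (0.71), all highest in cluster 15. Those most like Gli1 were P2ry1 (0.70), Col15a1 (0.69), Smoc2 (0.67), A830012C17Rik (0.67) and Rarres1 (0.65). For Hhip they were Col4a4 (0.79), Col4a3 (0.69), Lrrc55 (0.66), Tspan11 (0.64) and Cldn15 (0.60). Col4a3 and Col4a4 encode chains of the same basement membrane collagen. For Ihh they were Gm50255 (0.78), Ptpro (0.76), Pitpnm3 (0.69) and Rab11fip1 (0.64), and all of these peaked in cluster 17 of 20-week replicate 2, where Ihh had a single UMI.

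**Figure D3:**
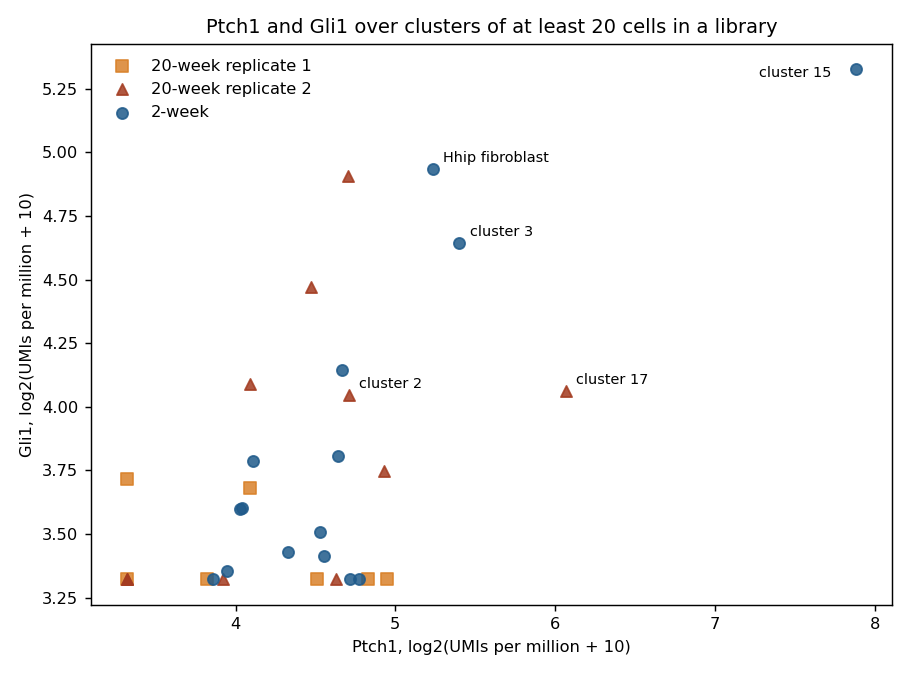
Level of Ptch1 (x axis) against Gli1 (y axis), both as log2(CPM + 10), for each of 32 units of a cluster in a library with at least 20 cells; symbols mark the libraries. The 2-week cluster 15 and the Hhip-positive fibroblasts lie at the upper right, and most units lie at low values of both; the osteogenic-like cells, taken from a finer clustering, lie here in cluster 4, which also holds tenocyte-like cells (88 of 157), and in cluster 3 (69).

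The ages were compared on UMIs summed per library with edgeR's quasi-likelihood test, 2 libraries against 1, with Benjamini-Hochberg adjustment over all genes and a threshold of 0.05. In bulk sums of this kind, fewer cells of a type and less RNA per cell cannot be told apart. Ptch1 had 12, 97 and 523 UMIs over all cells of 20-week replicate 1, 20-week replicate 2 and the 2-week library, and Gli1 had 3, 39 and 177. Over all cells 0 of the 6 members tested passed, where 0% of all 13229 genes were called by edgeR (1050 genes had an unadjusted p under the threshold, and 199 passed by DESeq2). These counts of 0 come from a comparison with little power. Counts were simulated for 12681 genes at the depths of these all-cell sums. Their spread between libraries was set by an assumed dispersion of 0.05 for every gene, not estimated from the data. With that spread the same test recovered 1 of 96 genes changed 8-fold and 44 of 97 changed 32-fold, with 0 false calls. A member that did not pass may thus still differ between the ages. Ihh was too low to be tested in any comparison.

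Hhip came nearest to a change with age. In the fibroblast pool, which takes in tenocyte-like, progenitor-like, Hhip-positive and unnamed cells, it had 1 and 8 UMIs in 20-week replicates 1 and 2 and 237 UMIs at 2 weeks, or 0.60, 1.8 and 10.3 CPM. Both 20-week libraries lay below the 2-week one, as they did for 35.4% of the 12483 genes tested. The fitted difference was -2.93 on the log2 scale (SE 0.80), with an edgeR adjusted p of 0.068, and it did not pass. Counting error alone put the ratio of pooled 20-week to 2-week levels at 0.142 (exact 95% interval 0.0640 to 0.274). The cluster chosen for Hhip had 8 and 5 cells with 0 Hhip UMIs at 20 weeks and held 188 of the 237 UMIs at 2 weeks. Without that cluster, which the choice itself makes rich in Hhip, the pool had 0.60 and 1.8 CPM in 20-week replicates 1 and 2 (0.0153 to 3.36 and 0.775 to 3.54) and 2.3 CPM at 2 weeks (1.7 to 3.1). These values are a description and do not say where the difference lies. In progenitor-like cells the ratio of pooled 20-week to 2-week levels of Hhip was 0.22 (exact 95% interval 0.056 to 0.625, counting error only). Such intervals lay above a ratio of 1 for other members, which did not pass either. In progenitor-like cells they were 1.31 to 2.96 for Ptch1, 4.24 to 153 for Gli1 and 1.18 to 2.12 for Gli3. In the pool they were 1.02 to 1.62 for Ptch1 and 1.08 to 2.32 for Gli1. Those of Smo and Gli2 in both, and of Gli3 in the pool, held a ratio of 1.

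In the same pool 0 of 6 members passed, where 2.54% of all 12483 genes were called. Ptch1 had 6.0 and 20.7 CPM in 20-week replicates 1 and 2 and 12.98 CPM at 2 weeks. Gli1 had 1.8 and 8.5 CPM in the 20-week replicates and 4.2 CPM at 2 weeks. For both genes the 2-week level lay between the 20-week ones, and the 2 replicates of the same age differed beyond their counting intervals for both Ptch1 (2.9 to 10.999 and 16.7 to 25.4) and Gli1 (0.37 to 5.24 and 5.999 to 11.6). Smo had 33.5 and 39.9 CPM against 38.6 CPM, Gli2 5.4 and 10.9 CPM against 11.1 CPM, and Gli3 14.4 and 25.2 CPM against 18.7 CPM at 2 weeks. Their fitted log2 differences were -0.03 for Smo (SE 0.43), -0.39 for Gli2 (SE 0.56) and 0.12 for Gli3 (SE 0.46).

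**Figure D4:**
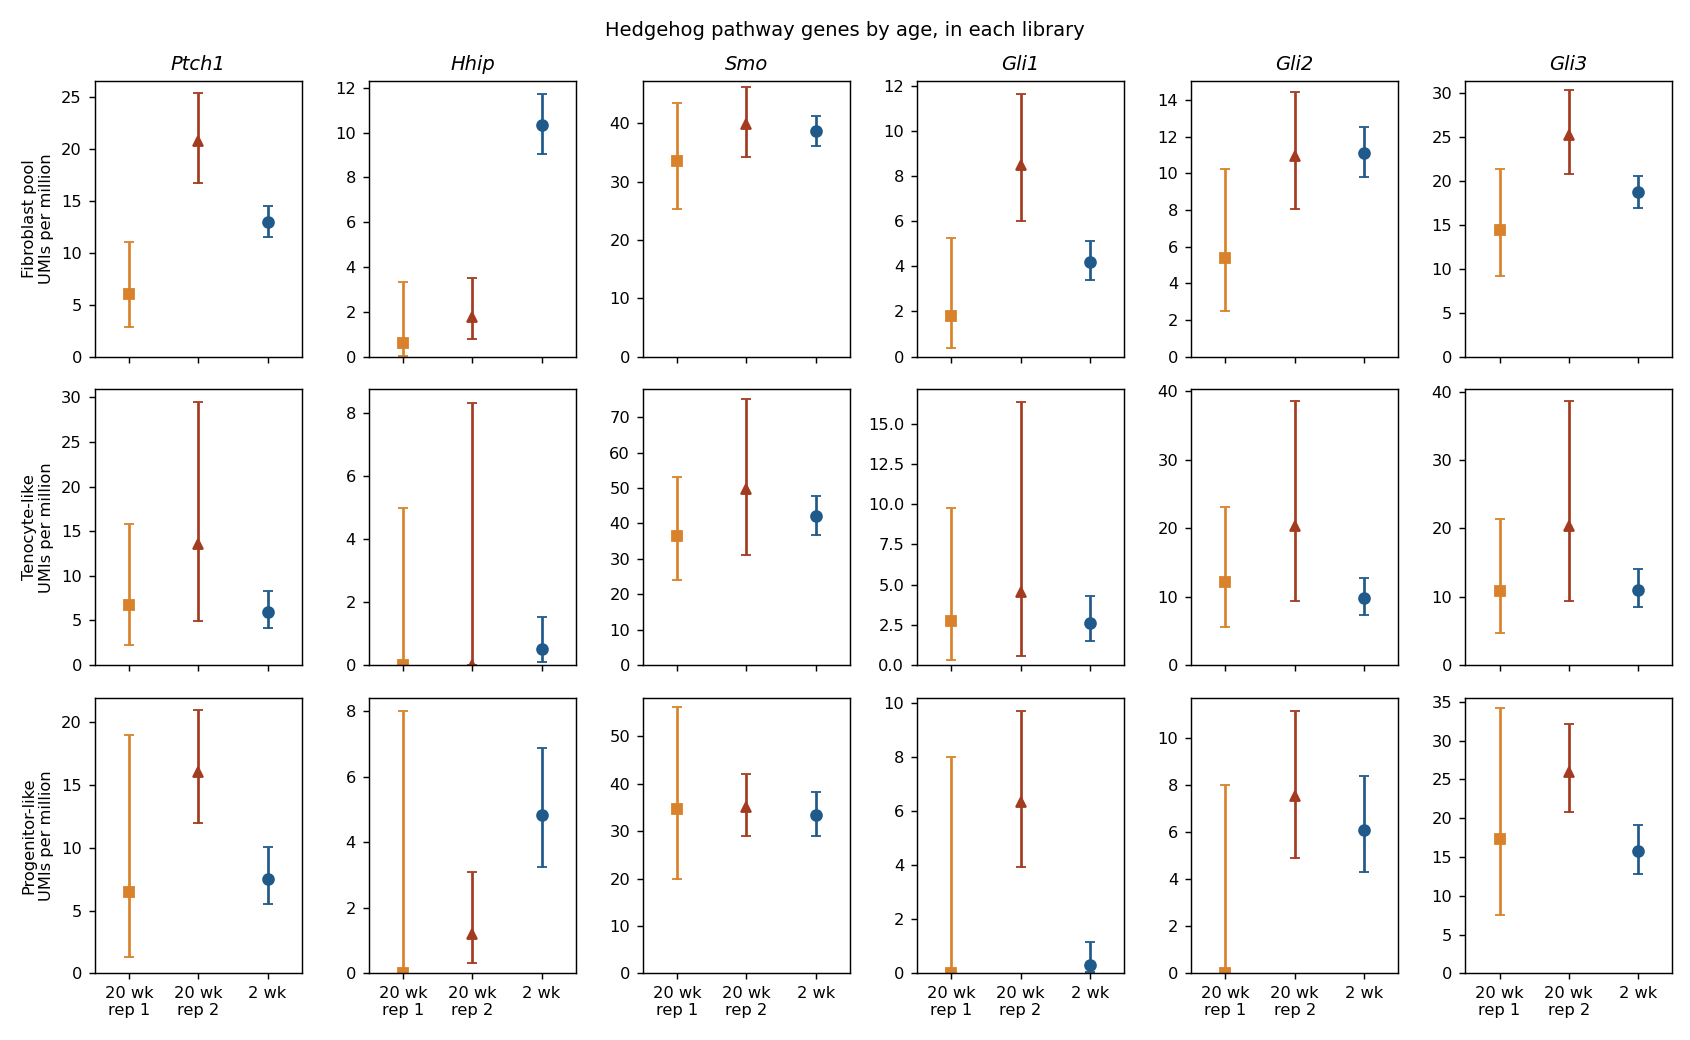
Level of 6 Hedgehog pathway genes (columns) in CPM (y axes, each with its own range) in the fibroblast pool, tenocyte-like and progenitor-like cells (rows), in 20-week replicate 1, 20-week replicate 2 and the 2-week library, with exact Poisson 95% intervals. Hhip in the pool lies at 0.60 and 1.8 CPM in the 20-week libraries and at 10.3 CPM at 2 weeks, and Gli1 in progenitor-like cells is seen mainly in 20-week replicate 2 (6.3 CPM).

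In tenocyte-like cells 4 of the 7 members were deep enough to be tested and 0 passed, where 4.14% of all 8059 genes were called. Ptch1 had 5, 6 and 34 UMIs in 20-week replicate 1, 20-week replicate 2 and the 2-week library, or 6.8, 13.6 and 5.9 CPM, and its log2 difference was 0.51 (SE 1.59). With classes cut at resolution 1.0 the level in 20-week replicate 2 was 30.7 CPM instead. At that resolution the tenocyte-like class took in a cluster of 73 cells of that library, led by Ibsp, Clu and Cytl1. Smo had 36.5 and 49.7 CPM at 20 weeks against 42.0 CPM at 2 weeks. Hhip had 0 UMIs in both 20-week libraries and 3 at 2 weeks, so no fold is given. In progenitor-like cells 6 members were tested and 0 passed, where 3.85% of all 11375 genes were called. Gli1 had 0 and 21 UMIs in 20-week replicates 1 and 2 and 2 UMIs at 2 weeks, or 0, 6.3 and 0.3 CPM, with a log2 difference of 3.69 (SE 1.63; edgeR adjusted p = 0.30). All 21 came from cluster 2, which held 517 cells of that library and 11 of the 2-week library, and without replicate 2 the log2 difference was -0.62. Ptch1 had 6.5 and 16.0 CPM at 20 weeks against 7.5 CPM at 2 weeks, and Gli3 17.3 and 26.0 CPM against 15.7 CPM. Hhip had 0 and 4 UMIs against 30, with a log2 difference of -2.25 (SE 1.38). The age difference was not shown to differ between tenocyte-like and progenitor-like cells for any of the 5 members tested, where 0.262% of all 11441 genes were called.

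Of the other 56 genes of a Hedgehog pathway list, some were called as changed with age, and most of these calls were lost under at least 1 alternative setting. In the fibroblast pool 46 were tested, 0 were higher and 1 was lower at 20 weeks, where 0.993% of all genes were called higher and 1.55% lower. Scube2, which helps release the ligand from the cell that makes it, had 0 and 14 UMIs at 20 weeks against 489 at 2 weeks, and its log2 difference was -3.44 (SE 0.72; edgeR adjusted p = 0.014). It passed in 7 of 9 alternatives, with adjusted p-values from 7.0e-07 to 0.9995. Nearly all of it was in tenocyte-like cells, where it had 0 and 13 UMIs against 453 and also fell, by 2.90 on the log2 scale (SE 0.69; edgeR adjusted p = 0.0028). Of the 29 tested in tenocyte-like cells, 1 was higher and 2 were lower, where 2.27% of all genes were called higher and 1.87% lower. Cyclin D1 (Ccnd1), a cell cycle gene and cited target, rose with a log2 difference of 2.39, with 50 and 8 UMIs against 45. After edgeR's normalization these were 75.0 and 15.5 CPM against 8.75 CPM, so the 20-week replicates lay far apart. Gpc3, another gene of the list, fell by 2.04, with 2 and 13 UMIs against 285. Of 8 alternatives in these cells, Scube2 and Ccnd1 passed in 4 each and Gpc3 in 2, and none reversed. Of the 41 tested in progenitor-like cells, 2 were higher and 2 lower, where 2.30% of all genes were called higher and 1.55% lower. The co-receptor Boc rose by 1.94 on the log2 scale, with 18 and 283 UMIs against 106. After edgeR's normalization these were 41.8 and 81.3 CPM against 16.8 CPM. With classes cut at resolution 1.0 the log2 difference of Boc was 0.85. The cited target Sfrp1, better known as a secreted Wnt antagonist, rose by 2.30, with 20 and 308 UMIs against 90. Its normalized levels were 46.5 and 88.4 CPM against 14.3 CPM. Gpc3 fell by 2.32, with 17 and 284 UMIs against 1993, and the parathyroid hormone receptor Pth1r fell by 2.02, with 5 and 34 UMIs against 262. Gpc3 passed in 8 of 8 alternatives there, Sfrp1 in 7, Pth1r in 6 and Boc in 5. With the members left out, the list had a median log2 difference of 0.14 over all cells, 0.23 in the pool, 0.19 for the tenocyte-like class and 0.24 for the progenitor-like class, against 0.03, 0.03, 0.06 and 0.01 over all genes tested, and these medians are a description. The members tested had a median of -0.33 over all cells, 0.03 in the pool, 0.37 for the tenocyte-like class and 0.30 for the progenitor-like class. The best measured gene of the other roles did not pass: the co-receptor Gas1 had a log2 difference of 0.17 (SE 0.69) in the pool, the releaser Disp1 0.60 (SE 0.45), the regulator of protein kinase A Prkar1a -0.33 (SE 0.53), the ciliary gene Arl13b 1.12 (SE 0.48), the cited target Igfbp6 1.30 (SE 0.98) and the growth plate gene Mef2c -1.15 (SE 0.47).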

How the data were processed

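Cells of patellar tendon were profiled in 3 droplet libraries. The deposited values are UMI counts per gene and barcode, not normalized, made by the authors with Cell Ranger 6.1.2 on mm10, per the submitters' processing notes. Counting settings and gene models are not given in the sources used here. Barcodes with at least 500 genes, 1000 UMIs and at most 10% mitochondrial UMIs were kept, and doublets scored by simulated neighbours (3, 8 and 197 in 20-week replicate 1, replicate 2 and the 2-week library) were left out. Clustering (scanpy 1.11.5; 2000 variable genes without the 63 listed Hedgehog genes, 30 components, 15 neighbours, Leiden at resolution 0.5) gave classes named by at least 2 markers among 10 leading genes and 3 detected. Osteogenic-like and immune-like cells were taken from resolution 1.0, where they first formed a cluster. That rule, the doublet rule and the naming rule were set after clusters and member counts of 1 earlier clustering had been seen. UMIs were summed per library and tested with edgeR 4.0.16 (TMM, filterByExpr; 1 residual degree of freedom, the lone 2-week library being assumed to vary like the 20-week ones); DESeq2 1.42.0 was an alternative. The edgeR step was tested on simulated data of the all-cell comparison with an assumed dispersion of 0.05 (1 of 96 genes changed 8-fold and 44 of 97 changed 32-fold recovered, 0 false calls). Named genes are the 7 members, list genes that passed or were best measured in their role, and the 5 genes most correlated with a member. Some genes that this rule names are not reported here. Members and lists were chosen with earlier results of these data known. Intervals are exact at 95%, shares allowed by a count of 0 use a floor of 3 counts, and thinning used 2000 UMIs.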

Additional observations from a re-analysis of the deposited data

Results flagged for a closer look

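Reporter sequences that were added to the feature list gave UMIs in libraries whose labels name the genotype as WT, and no comparison above uses them. EGFP had 86 UMIs in 55 of 606 cells of 20-week replicate 1, 58 UMIs in 36 of 1007 cells of 20-week replicate 2 and 1817 UMIs in 818 of 4767 cells of the 2-week library. tdTomato had 878 UMIs in 160 cells, 1406 UMIs in 257 cells and 983 UMIs in 726 cells of the same libraries. The source of these UMIs was not tested.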

How the results depend on the processing

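Among 192 tests of a member with an adjusted p, over all comparisons and settings, 3 passed, all for Hhip in the fibroblast pool: with DESeq2 size factors (adjusted p = 0.038), with no filter on low counts (0.015) and, chosen after seeing the data, without clusters 12, 14 and 15 (0.0088). Its log2 difference ranged from -3.61 to -2.55 when 1 library of 20 weeks was left out. The counts of genes called moved far more, and calls of single list genes moved with them. Over all cells they were 0 in the main setting and with DESeq2 size factors, 664 with no filter, 199 by DESeq2, 7 with sums thinned to the smallest library, 44 under stricter cell filters and 20 with doublets kept. In the pool they were 317, 622 with no filter, 33 with thinned sums and 576 without clusters 12, 14 and 15. In tenocyte-like cells they were 334, 140 by DESeq2, 156 with thinned sums, 636 at resolution 1.0, 25 with the Hedgehog genes in the clustering and 173 with doublets kept. In progenitor-like cells they were 438, 124 by DESeq2, 161 with thinned sums and 267 at resolution 1.0. With sums thinned to the smallest library, differences near 0 reversed for Smo (0.16), Gli1 (0.32) and Gli3 (-0.14) over all cells and for Smo (0.12), Gli3 (-0.085) and Ptch1 (-0.37) in the pool, and Smo in tenocyte-like cells reversed at resolution 1.0 (0.036). No paired analysis was possible because the 2-week library carries no replicate number and stands alone; the class by age test blocks on the library, and it called 30 genes with that replicate block, 1 with no replicate block and 80 with DESeq2 size factors. Leaving out a 20-week library leaves 1 library against 1, a value with no test. Ptch1 in osteogenic-like cells stayed between 104.2 and 111.7 CPM under 4 alternatives. Resolution 1.0 was among these although the class was taken from it, so with the same 157 cells it could not differ. The share of osteogenic-like cells with Ptch1 was 13.6% thinned to 2000 UMIs, 12.1% thinned to 1000 and 32.5% unthinned. Hhip-positive cells numbered 86 at resolution 1.0, and their Ptch1 was then 59.8 CPM. Depth limits Ihh, and 20-week replicate 1 for every member. Under the naming rule no osteogenic-like and 1 chondrocyte-like cell were found at 20 weeks, so their levels have no replicate. The unnamed cluster 17 of 20-week replicate 2 shared leading genes with the osteogenic-like cluster, and more of them with the tenocyte-like cluster 7. This absence therefore depends on that rule.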

Other observations

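Pthlh and Pth1r, a ligand and receptor pair that partners Indian hedgehog in the growth plate, peaked in different classes at 2 weeks, though progenitor-like and chondrocyte-like cells had both. The receptor Pth1r was highest in osteogenic-like cells (139 UMIs, 140.1 CPM) and chondrocyte-like cells (194 UMIs, 69.6 CPM), against 48.4 CPM in tenocyte-like and 42.1 CPM in progenitor-like cells. The ligand Pthlh had 0 UMIs in osteogenic-like cells and 10.8 CPM in chondrocyte-like cells, and was highest in the Hhip-positive fibroblasts (176 UMIs, 88.3 CPM) and progenitor-like cells (310 UMIs, 49.8 CPM). In progenitor-like cells Pthlh had 23.8 and 71.6 CPM in 20-week replicates 1 and 2.

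The Hedgehog co-receptors Boc and Gas1, and Gpc3 of the same pathway list, also differed by class at 2 weeks. Boc had 148.2 CPM in osteogenic-like and 162.9 CPM in chondrocyte-like cells, against 17.02 CPM in progenitor-like cells. Gas1 had 864.5 CPM in chondrocyte-like and 167.3 CPM in osteogenic-like cells, and Gpc3 had 530.1 CPM in the Hhip-positive fibroblasts and 15.1 CPM in osteogenic-like cells. These genes were picked after their values had been seen, and the levels are given as a description.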
